A study of Homo sapiens with 4 samples.

Results

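The ISG15 conjugation system comprises 6 genes: the modifier ISG15, its activating enzyme UBA7, its conjugating enzyme UBE2L6, the ligase HERC5, the related ligase HERC6 and the protease USP18. They were taken by gene symbol from tables of 39323 genes, and all 6 were found and had a mean of at least 1 TPM (a transcript level corrected for transcript length and scaled to a fixed library total) over the 4 libraries, as did 12985 genes in all. The genes were chosen by function and also selected on measured values, since the set was proposed when the lower TPM of interferon-stimulated genes with SKP2 depletion was already known from these same libraries. The differences between shSKP2 and shSCR are therefore given below as a description, without a test. The libraries were made from RD and JR1, established human lines of fusion-negative rhabdomyosarcoma, a soft-tissue tumor with skeletal muscle features. Each line was infected with a lentiviral pLKO.1-puro vector that carried either a short hairpin RNA against SKP2, the substrate receptor of an SCF ubiquitin ligase (shSKP2), or a non-targeting hairpin (shSCR). All 4 groups were thus virus-infected cell populations, and cells without virus were not analysed here. There was 1 library of poly-A selected RNA per line and hairpin, and 1 hairpin against SKP2, so no difference between groups has a replicate check, an error or a p-value, and an effect of the hairpin sequence itself cannot be told apart from that of SKP2 depletion.

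ISG15 is a small ubiquitin-like protein that interferons induce. UBA7 activates it, UBE2L6 receives it, and HERC5, the main human ligase for it, joins it to newly made proteins in a process called ISGylation. USP18 removes ISG15 from its targets and also binds the interferon receptor subunit IFNAR2, where it dampens signalling, while free ISG15 keeps human USP18 stable and can be secreted as a cytokine-like factor.

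The targeted transcript, SKP2, was at 92.8 TPM in RD shSCR and 7.40 TPM in RD shSKP2, and at 46.5 TPM in JR1 shSCR and 2.72 TPM in JR1 shSKP2, so the labels matched the knockdown. Short structural RNAs took 50.1% to 64.9% of the TPM of a library, with the larger share in shSKP2 in both lines. Each difference is the log2 ratio, within a line, of the shSKP2 to the shSCR level after 1 TPM was added to both. Over all 12985 genes its median was -0.27 for RD and -0.21 for JR1. Without the structural RNAs these medians were 0.10 and 0.03. Read numbers cannot be recovered from TPM, and sequencing depth is therefore unknown. The defining markers of the lines were present, with MYOD1 at 87.0 to 131 TPM and MYOG at 31.6 to 107 TPM. Of 8 immune cell markers, 7 did not exceed 1 TPM in any library (PTPRC, 0 to 0.01 TPM), and the exception was CD68 at 2.28 to 2.87 TPM. The 8 markers summed to 3.01 to 3.38 TPM. The endothelial markers PECAM1 and CDH5 and the epithelial markers EPCAM and CDH1 did not exceed 0.16 TPM. The endothelial list also held TEK at 2.55 to 6.37 TPM, and the epithelial list KRT18 at 80.8 to 202 TPM. Of 10 rhabdomyosarcoma markers, FGFR4 (-1.89 and -1.39) and PAX7 (-1.43 in each line) were lower by at least 1 in both lines, and the myosin MYH8 was higher (1.46 and 2.37), as was MYH3 in JR1 (1.15).

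The promoters of ISG15 and HERC5 held the core of the interferon-stimulated response element, a DNA sequence through which interferon induces transcription and which interferon regulatory factors bind. The core was searched as GAAANNGAAA on both strands, where N is any base, in RefSeq windows on GRCh38.p14 that run from 250 bases before to 50 bases after the start of transcription. Windows were found for ISG15, UBE2L6 (2 starts), HERC5 and HERC6. The stretches around the matches are shown because these are the members with the largest differences, with every base of a match in capitals.

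ISG15, chr1:1013359-1013424, plus strand, bases -138 to -73 from the start: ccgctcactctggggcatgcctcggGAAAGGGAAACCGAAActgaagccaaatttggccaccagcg

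HERC5, chr4:88456969-88457079, plus strand, bases -150 to -40 from the start: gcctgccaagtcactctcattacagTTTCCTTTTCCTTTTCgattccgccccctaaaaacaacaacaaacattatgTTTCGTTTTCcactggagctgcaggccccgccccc

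ISG15 had 2 matches, which start at -113 and -107 and share 4 bases, so that the capitals read as 1 run of 3 GAAA units. HERC5 had 3 matches, all on the opposite strand and therefore printed as their reverse complement. The first pair (-125 and -119) overlaps in the same way, and the last stands apart at -74. Positions are counted from the RefSeq start of each window. For HERC5 this start lies downstream of the first base of the gene in the deposited table, so the printed stretch falls inside the table's span of HERC5, while that of ISG15 falls before the table's span. No exon of the GENCODE annotation lay over either stretch, although 2 longer ISG15 transcripts span the first one with an intron. The HERC6 window and both UBE2L6 windows held no match, and TTCNNNGAA, the core of the gamma-activated site through which interferon gamma acts, matched in none of the 4 genes' windows. A match is a description of letters, not a measured binding site. The GAAANNGAAA core was found in 1255 of 35116 windows (3.57%) and in 381 of the 10090 tested genes with a window (3.78%).

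The share of tested genes that were lower by at least 1 on the log2 scale was 11.0% in RD among the 381 genes with the GAAANNGAAA core, beside 7.24% of all tested genes with a window. In JR1 these shares were 15.7% and 8.79%. The median difference of the genes with the core lay close to that of all genes, at -0.30 beside -0.28 in RD and -0.30 beside -0.22 in JR1, so most genes with these letters did not share the size of the ISG15 or HERC5 difference. For the TTCNNNGAA core, which 7.66% of windows held, the shares were 6.22% in RD and 8.73% in JR1.

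All 6 members had lower TPM with shSKP2 than with shSCR in both lines, as the plot of TPM by gene shows. In bulk RNA, fewer cells that express a transcript and less of it per cell cannot be told apart. Members lower by at least 1 on the log2 scale numbered 4 of 6 in RD (ISG15, UBA7, HERC5 and HERC6), where 7.37% of all tested genes passed that limit. In JR1 they numbered 6 of 6, beside 9.05% of all tested genes. 4 members passed it in both lines, beside 4.79% of tested genes. No member was higher by that much, beside 1.08% of tested genes in RD and 1.78% in JR1. Because the members were proposed with the falls of interferon-stimulated genes known, these counts are not independent evidence of a direction. The median difference of the members was -1.25 in RD and -1.43 in JR1. Values below 0 were common, at 74.99% of tested genes in RD and 68.9% in JR1. After the all-gene median was subtracted the members' medians were -0.98 and -1.22, and without the structural RNAs they were -1.10 and -1.39.

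ISG15 (chr1:1013497-1014540 on GRCh38, plus strand, 2 exons) was the most abundant member in every library. It was at 647 TPM in RD shSCR, 70.2 TPM in RD shSKP2, 606 TPM in JR1 shSCR and 82.8 TPM in JR1 shSKP2. Within each line the shSCR value was the higher, as it was for 74.99% of tested genes in RD and 68.9% in JR1. Its TPM was 9.22-fold lower with shSKP2 in RD and 7.32-fold lower in JR1, log2 differences of -3.19 and -2.86. These placed it 17th from the lowest of 12985 genes in RD and 42nd in JR1. By level it stood 83rd in RD shSCR and 70th in JR1 shSCR, and 767th and 516th in the shSKP2 libraries.

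The makeup of the system differed between hairpins. ISG15 made up 78.3% of the members' summed TPM in RD shSCR (827 TPM in all) and 75.1% in JR1 shSCR (807.5 TPM). In shSKP2 the sums were 147 and 160 TPM, and ISG15 made up 47.8% and 51.8% of them. The level of ISG15 was 7.78 times that of its conjugating enzyme UBE2L6 in RD shSCR and 1.40 times in RD shSKP2. In JR1 the ratio was 4.75 in shSCR and 1.39 in shSKP2, so the ratio differed less between the lines in shSKP2 than in shSCR.

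UBA7 (chr3:49805209-49813953, minus strand, 24 exons), the only activating enzyme dedicated to ISG15, was the least abundant member in every library. It was at 2.93 TPM in RD shSCR, 0.81 TPM in RD shSKP2, 4.82 TPM in JR1 shSCR and 1.03 TPM in JR1 shSKP2. All these values were low, and both shSKP2 values were near or under 1 TPM. Its TPM was 3.62-fold lower with shSKP2 in RD and 4.68-fold lower in JR1, log2 differences of -1.12 and -1.52. At such low levels the added 1 TPM understates the difference, and with 0.1 TPM added instead the differences were -1.74 and -2.12. The ISG15 to UBA7 ratio was 221 in RD shSCR and 86.7 in RD shSKP2, and 126 in JR1 shSCR and 80.4 in JR1 shSKP2.

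UBE2L6 (chr11:57551662-57567935, minus strand, 4 exons), which carries ISG15 from UBA7 to the ligases, was second in level in every library and had the smallest difference of the members in both lines. It was at 83.1 TPM in RD shSCR, 49.99 TPM in RD shSKP2, 128 TPM in JR1 shSCR and 59.6 TPM in JR1 shSKP2. Its TPM was 1.66-fold lower with shSKP2 in RD and 2.14-fold lower in JR1, log2 differences of -0.72 and -1.09. The JR1 difference was -0.87 after the all-gene median was subtracted and -0.81 without the structural RNAs, so these scalings left it short of the limit of 1. The share of UBE2L6 in the members' TPM was 10.1% in RD shSCR, 34.1% in RD shSKP2, 15.8% in JR1 shSCR and 37.3% in JR1 shSKP2.

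HERC5 (chr4:88456604-88506170, plus strand, 23 exons) had the largest difference after ISG15 in both lines. It was at 61.2 TPM in RD shSCR, 12.2 TPM in RD shSKP2, 41.2 TPM in JR1 shSCR and 6.44 TPM in JR1 shSKP2. The ligase was thus 5.02-fold lower in RD and 6.39-fold lower in JR1, log2 differences of -2.24 and -2.50. It ranked 52nd from the lowest difference in RD and 56th in JR1.

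HERC6 (chr4:88378485-88443097, plus strand, 23 exons), a HECT-domain ligase close to HERC5 in sequence and position, acts as the main ISG15 ligase in mice, but its part in human cells is less clear. It was at 18.01 TPM in RD shSCR, 6.25 TPM in RD shSKP2, 12.1 TPM in JR1 shSCR and 4.53 TPM in JR1 shSKP2. The log2 differences were -1.39 and -1.24, and the ratios of TPM 2.88 and 2.67. HERC6 was the member whose difference was most alike in the lines. HERC5 was 3.40 times as abundant as HERC6 in RD shSCR and 3.41 times in JR1 shSCR, but 1.95 and 1.42 times in the shSKP2 libraries.

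USP18 (chr22:18149855-18177397, plus strand, 11 exons), the protease that removes ISG15, was at 14.4 TPM in RD shSCR, 7.35 TPM in RD shSKP2, 15.5 TPM in JR1 shSCR and 5.51 TPM in JR1 shSKP2. Its log2 difference was -0.88 in RD and -1.34 in JR1. The ISG15 to USP18 ratio was 44.9 and 39.2 in the shSCR libraries of RD and JR1, and 9.55 and 15.0 in the shSKP2 libraries. The values of USP18 are uncertain, because 52.9% of the 50-base words of its main transcript also occur in transcripts of other genes, among them USP41, a copy elsewhere on the same chromosome. USP41 was at 1.02, 1.26, 0.46 and 1.78 TPM in RD shSCR, RD shSKP2, JR1 shSCR and JR1 shSKP2. How the estimation divided reads between these copies was not tested. For ISG15, UBA7, UBE2L6 and HERC5 no such word was shared, and for HERC6 0.805% were, with HERC3.

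The order of the levels was ISG15, UBE2L6 and HERC5 from the top and UBA7 last in all 4 libraries. HERC6 stood above USP18 in RD shSCR (18.01 and 14.4 TPM) and below it in the other 3 libraries. With 1 library per group the spread behind any of these neighbours is unknown. HERC5, USP18 and HERC6 lay close together in JR1 shSKP2, at 6.44, 5.51 and 4.53 TPM, so their order there rests on small differences.

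No member differed between JR1 and RD by 1 or more on the log2 scale in shSCR, where 9.94% of tested genes did, and none in shSKP2, where 8.09% did. With 6 members, counts of 0 are near these shares and show nothing particular to them. In shSCR the JR1 minus RD differences of log2(TPM + 1) were -0.09 for ISG15, 0.57 for UBA7, 0.61 for UBE2L6, -0.56 for HERC5, -0.54 for HERC6 and 0.10 for USP18. UBA7 and UBE2L6 were thus higher in JR1 and the paired ligases higher in RD, while the median of all tested genes was -0.23. In shSKP2 they ran from -0.82 for HERC5 to 0.25 for UBE2L6, beside a median of -0.17.

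The response of each member differed between the lines by 0.15 (HERC6) to 0.46 (USP18) on the log2 scale in size. For all tested genes the median size of that difference was 0.22 and its 90th percentile 0.62. The differences of ISG15 and HERC6 were larger in RD and those of UBA7, UBE2L6, HERC5 and USP18 larger in JR1. With 1 library per group, whether the lines differ in any of these was not testable.

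**Figure D1:**
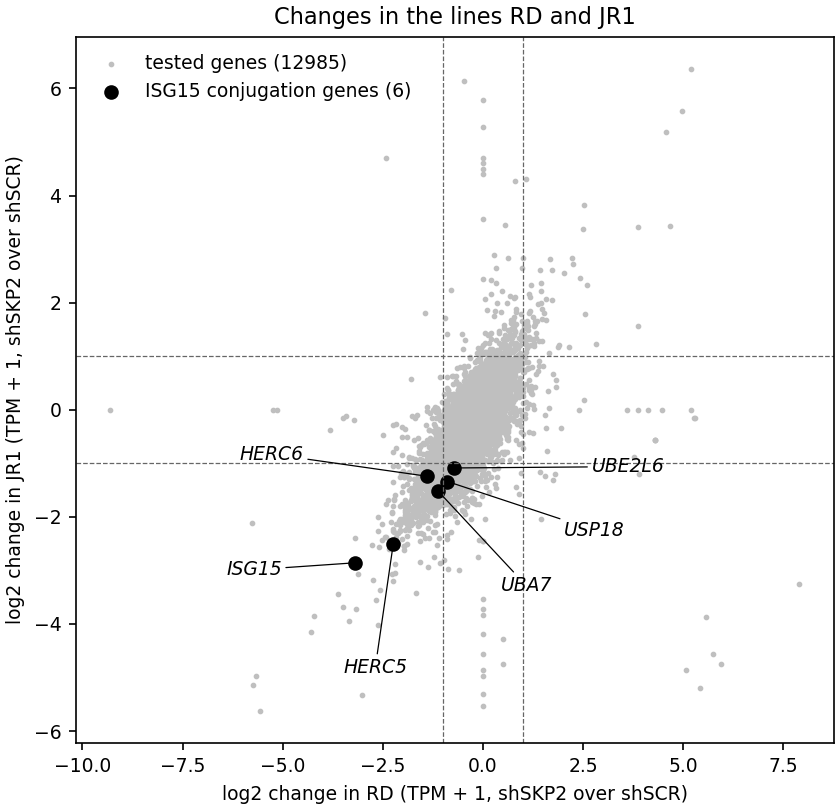
Log2 change (shSKP2 over shSCR, TPM + 1) of every tested gene in RD on the horizontal and JR1 on the vertical axis, in grey, with the 6 ISG15 genes in black and dashed lines at 1 and -1. ISG15 (-3.19 and -2.86) and HERC5 (-2.24 and -2.50) lie at the lower left margin of the cloud, and the other 4 closer to its centre.

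The scaling moved the values of the members. All 6 stayed below 0 in both lines when centred on the all-gene median, without structural RNAs and under upper-quartile scaling. The plot of settings shows these scalings. Removing RMRP, RPPH1 and tRNA genes as well left all 6 below 0 too. The other settings change the added TPM, the tested genes or the limit, and cannot move a difference across 0. UBA7 is not tested when a mean of 5 TPM is required. Among the scalings, ISG15 ranged from -3.19 to -2.78 in RD and HERC5 from -2.24 to -1.88. UBE2L6 in RD was the member closest to the median of all genes, at -0.33 without the structural RNAs.

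**Figure D2:**
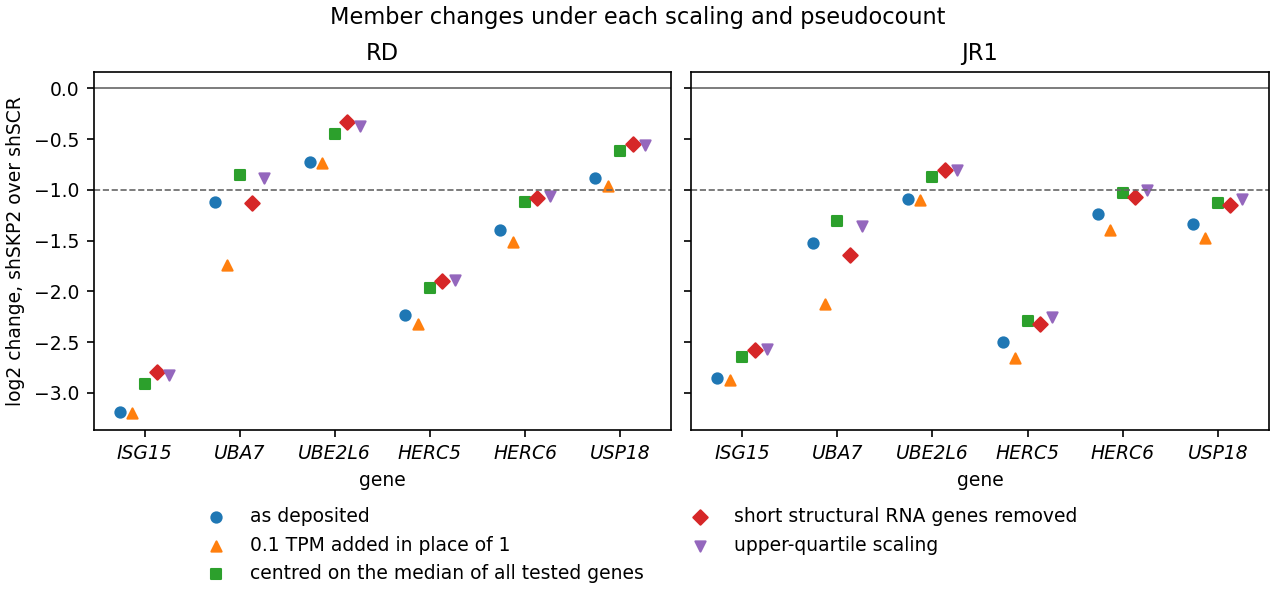
Log2 change of each gene in RD (left) and JR1 (right) with the TPM as deposited, with 0.1 TPM added in place of 1, and under 3 other scalings. No point rises above 0. UBE2L6 lies above the dashed limit of -1 in RD under all 5 settings, and in JR1 under the 3 other scalings.

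The relatives of the members in the ubiquitin system were set beside them. ISG15 was nearly as abundant as the ubiquitin gene UBB in shSCR, at 0.84 times its TPM in RD and 0.88 times in JR1, and was at 0.12 and 0.17 times in shSKP2. UBB was at 774 and 568 TPM in RD shSCR and shSKP2, and at 692 and 477 TPM in JR1. RPS27A, which encodes ubiquitin fused to a ribosomal protein, had log2 differences of -0.28 and -0.36. UBA1, the activating enzyme of ubiquitin, was at 138, 111, 100 and 87.5 TPM (RD shSCR, RD shSKP2, JR1 shSCR, JR1 shSKP2), log2 differences of -0.32 and -0.20. UBE2L3, the closest relative of UBE2L6 among the conjugating enzymes, was at 57.8, 46.5, 35.7 and 40.6 TPM in the same order, differences of -0.31 and 0.18. Without the structural RNAs UBA1 was at 0.08 and 0.09 and UBE2L3 in RD at 0.08, above 0.

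HERC1 to HERC4 are relatives of the ligases HERC5 and HERC6. HERC3, close to HERC5 on chromosome 4, was at 6.42 and 5.94 TPM in RD shSCR and shSKP2 and at 0.97 and 2.44 TPM in JR1, differences of -0.10 and 0.80. HERC4 had differences of 0.18 and 0.37, HERC2 of -0.01 and -0.15, and HERC1 of 0.24 and 0.33. Of the 12 ubiquitin relatives none passed the limit of 1 in either direction, with UBA6 lowest at -0.66 in RD, close to the member UBE2L6 at -0.72, and at -0.71 in JR1. For 12 genes this is near the shares of all tested genes lower by that much, 7.37% in RD and 9.05% in JR1. The medians of the 12 relatives were -0.23 for RD and 0.04 for JR1, or 0.17 and 0.33 without the structural RNAs. In JR1, HERC3 and USP41 did pass it once the all-gene median was subtracted (1.02 and 1.14) and without the structural RNAs (1.29 and 1.55).

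The other ubiquitin-like conjugation systems were set beside the ISG15 system by median and count. Over all tested genes 7.37% in RD and 9.05% in JR1 were lower by at least 1, and 1.08% and 1.78% higher. In lists this small, finding none is near these shares and shows nothing particular to them. In the NEDD8 system, which activates cullin ligases, none of 10 genes passed the limit in either line, and the medians were -0.48 in RD and -0.08 in JR1. NEDD8 itself was at -0.66 and -0.73. In the SUMO system none of 16 genes passed it, with medians of -0.39 and -0.03, SUMO3 lowest at -0.97 and -0.69 and the ligase PIAS4 highest at 0.22 and 0.50. None of the 8 UFM1 genes (medians -0.38 and -0.22) and none of the 15 genes of the ATG8 and ATG12 systems of autophagy (medians -0.34 and 0.03) passed it. Without the structural RNAs the medians of these 4 lists ran from -0.10 to 0.31.

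URM1, a modifier that also serves as a sulfur carrier in tRNA modification, did pass the limit. It was at 22.0 TPM in RD shSCR, 8.40 TPM in RD shSKP2, 16.5 TPM in JR1 shSCR and 5.72 TPM in JR1 shSKP2, log2 differences of -1.29 and -1.38. Without the structural RNAs these were -0.96 and -1.19, so the RD value then missed the limit. Its activating enzyme MOCS3 was at -0.06 and -0.12. UBD, which encodes the interferon-inducible modifier FAT10, was listed at 0 TPM in every library, while its enzymes UBA6 and UBE2Z were present in all 4.

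**Figure D3:**
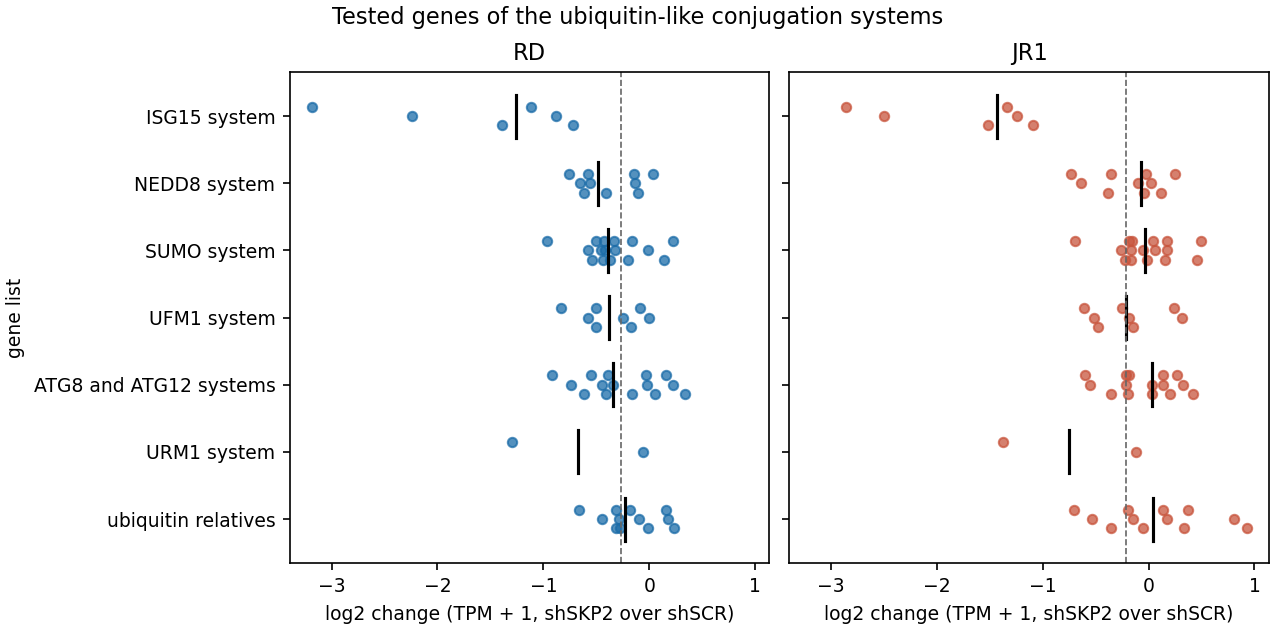
Log2 change (shSKP2 over shSCR, TPM + 1) of each tested gene of 7 lists in RD (left) and JR1 (right), with the list median as a black bar and the median of all tested genes (-0.27 and -0.21) as a dashed line. The 6 ISG15 genes lie at or below -0.72 in RD and -1.09 in JR1, and 1 other point, URM1, lies below -1 in each panel.

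Among 8 enzymes reported to act on ISG15 besides the members, 1 passed the limit. That count is near the shares of all tested genes lower by that much, 7.37% in RD and 9.05% in JR1. USP5, a protease that mainly disassembles free ubiquitin chains, was at 64.5 and 28.7 TPM in RD shSCR and shSKP2 and at 70.5 and 25.8 TPM in JR1. Its differences of -1.14 and -1.42 stood at -0.76 and -1.15 without the structural RNAs. The ligase TRIM25, which is interferon-inducible, was at -0.36 and -0.64, and ARIH1 at -0.18 and -0.09. The list median was -0.37 in RD and -0.37 in JR1, or -0.10 and -0.16 after the all-gene median was subtracted. ITGAL and ITGB2, the subunits of LFA-1, the receptor of extracellular ISG15 on lymphocytes, did not exceed 0.13 TPM.

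The receptor chains that USP18 regulates did not follow the members. IFNAR2 was at 2.95 and 3.05 TPM in RD shSCR and shSKP2 and at 4.90 and 5.79 TPM in JR1, and IFNAR1 at 7.15 and 6.61 TPM and at 9.20 and 11.5 TPM. Further down the pathway, STAT2 was at 39.6 and 13.9 TPM in RD and at 58.0 and 16.6 TPM in JR1, differences of -1.44 and -1.74. It was the only gene of the 12 in this list lower by at least 1 in RD, a count near the 7.37% of all tested genes. In JR1, 6 of the 12 were lower by at least 1, beside 9.05% of all tested genes. Among these were STAT2, IRF9 (-1.52), IRF1 (-1.56), IRF7 (-1.78) and SOCS3 (-1.36). In RD, IRF9, IRF1, IRF7 and SOCS3 were between -0.96 and -0.81. STAT2 and IRF9 carry the signal of the receptor to the nucleus, IRF1 and IRF7 are interferon regulatory factors, and SOCS3 is a feedback inhibitor of cytokine receptors. The list median was -0.66 in RD and -1.04 in JR1.

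Transcripts of the interferons themselves were at or near 0, except for IFNL1 in the shSCR libraries. Of 9 type I and III interferon genes, IFNL1 was listed at 1.11 TPM in RD shSCR, 0.08 TPM in RD shSKP2, 2.35 TPM in JR1 shSCR and 0 TPM in JR1 shSKP2. Its log2 differences were -0.97 in RD and -1.74 in JR1, but its mean of 0.885 TPM left it outside the tested genes. The other 8 did not exceed 0.09 TPM in any library.

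Among 20 genes whose proteins have been reported as ISG15 targets, 19 were tested. Those described here are the RNA sensors and EIF4E2. DDX58, which encodes the RNA sensor RIG-I, was at 15.0, 4.21, 11.7 and 2.44 TPM in RD shSCR, RD shSKP2, JR1 shSCR and JR1 shSKP2. The sensor IFIH1 (MDA5) was at 11.1, 3.07, 11.3 and 1.25 TPM in the same order, and its difference of -2.45 in JR1 was the lowest of the list. DDX58 was at -1.62 in RD and -1.88 in JR1. EIF4E2, a cap-binding translational repressor, was the only gene of the list higher by at least 1, at 0.33 in RD and 1.04 in JR1. Over all tested genes 1.78% were higher by that much in JR1. The medians of the list were -0.65 and -0.50. These are transcript levels, and the amount of ISG15 attached to any protein was not measured.

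The 5 tested genes with the profile most like ISG15, by Euclidean distance of log2(TPM + 1) over the 4 libraries after centring each gene on its own mean, were FZD4, IL6, PLAAT4, SARAF and RSAD2. FZD4, which encodes a Wnt receptor, was at 25.4, 1.91, 19.6 and 2.90 TPM in RD shSCR, RD shSKP2, JR1 shSCR and JR1 shSKP2, a distance of 0.32. RSAD2 (viperin), an antiviral enzyme induced by interferon, was at 14.5, 0.27, 11.5 and 0.15 TPM and a distance of 0.59. No other member was among these 5, the nearest being HERC5 at rank 28 and a distance of 1.05.

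Profiles were centred but not scaled, so a distance depends on the size of the differences, which among the members was largest for ISG15. The nearest profiles to the other members lay at smaller distances. For UBA7 they were those of PSMB10, an immunoproteasome subunit, at 0.07 and IRF1 at 0.12. For UBE2L6 they were those of GLIPR2 and NBL1, both at 0.07. FCGRT, the neonatal Fc receptor, at 0.18 and DDAH1 at 0.28 were nearest to HERC5, HAUS6 at 0.06 and AIDA at 0.10 to HERC6, and PLD2 at 0.06 and BID at 0.07 to USP18. With 4 values per gene many profiles lie close together, and the members were seldom near each other: UBE2L6 at rank 125 for UBA7 was by rank the closest pair after HERC5 for ISG15.

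The members lie on 5 chromosomes, and HERC6 and HERC5 are neighbours, 13.5 kb apart in the same orientation. The tested genes flanking ISG15 were also lower by at least 1 in both lines, as were 4.79% of all tested genes. HES4, a transcriptional repressor of the Notch pathway 12.4 kb before it, was at 41.0, 14.8, 66.9 and 18.2 TPM in RD shSCR, RD shSKP2, JR1 shSCR and JR1 shSKP2, differences of -1.41 and -1.82. AGRN, which encodes agrin of the neuromuscular junction 5.56 kb after it, was at 69.8, 26.9, 73.0 and 25.8 TPM, differences of -1.34 and -1.46. The remaining tested genes within 150 kb of ISG15 did not pass the limit in either line, with differences between -0.98 and 0.27.

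Around UBE2L6, SERPING1, the complement C1 inhibitor gene 29.7 kb away, was at 10.6, 4.38, 9.46 and 2.07 TPM in the same order, differences of -1.11 and -1.77, while TIMM10 on the other side was at -0.42 and -0.33. The neighbours of UBA7, INKA1 and TRAIP, were between -0.70 and -0.34. PYURF, after HERC5, was at -0.35 and -0.07, and PPM1K, before HERC6, at -1.28 and -0.72. PEX26, the tested gene nearest to USP18, was at -0.18 and -0.19. LOC102723458 overlaps the end of HERC6 and the start of HERC5 in the table's coordinates and was at 1.05, 1.08, 2.04 and 0.59 TPM.

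**Figure D4:**
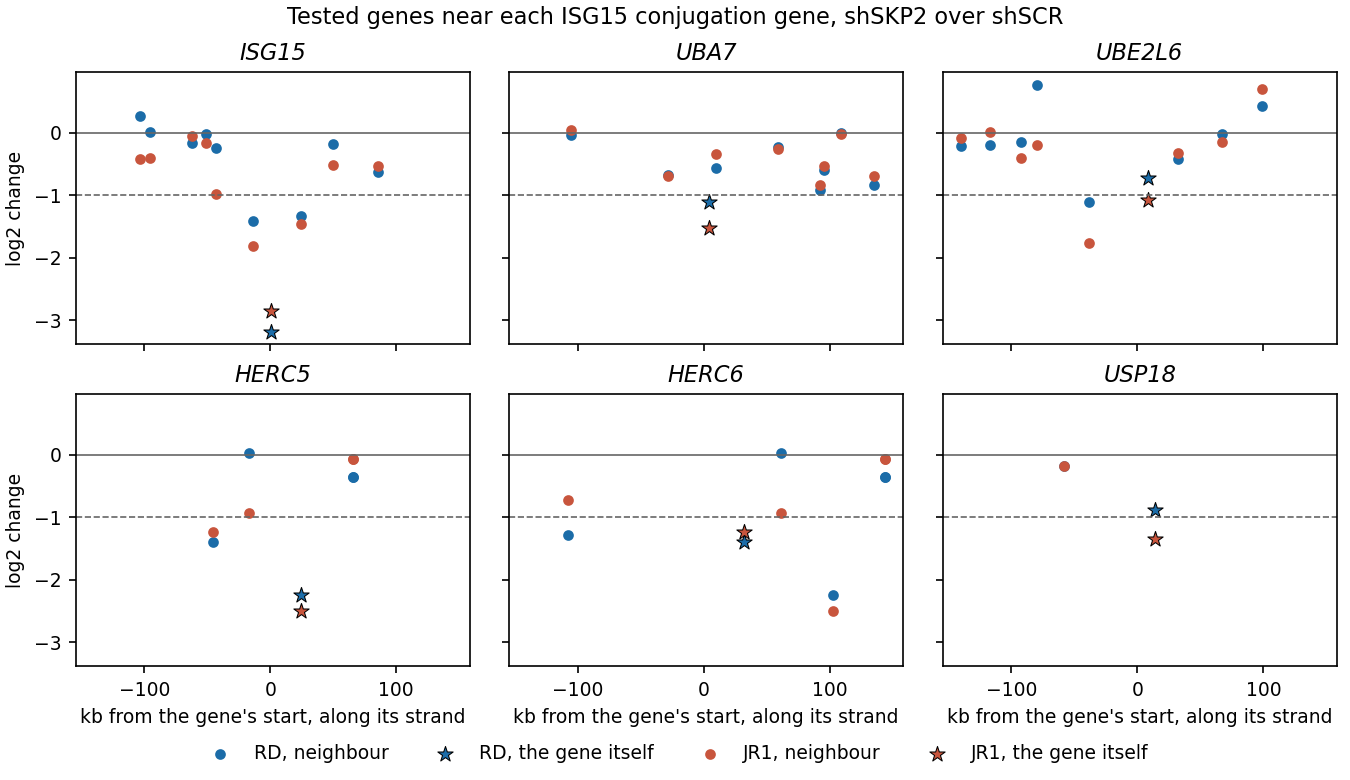
Log2 change of the tested genes within 150 kb of each member (stars, the member itself), plotted by the distance of the gene's middle from the member's start along the member's strand, with RD in blue and JR1 in red. ISG15 has 1 gene below -1 in both lines on either side, HES4 (-1.41 and -1.82) and AGRN (-1.34 and -1.46), and HERC5 and HERC6 appear in each other's panels.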

How the data were processed

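Total RNA of 4 cultures (RD and JR1, shSCR or shSKP2) was poly-A selected and sequenced as directional libraries. Per the labels and methods, the authors aligned reads to GRCh38 with STAR 2.7.9a and estimated expression with RSEM 1.3.2. The deposited values are TPM, which sum to 1e+06 per library. Read counts, depth and counting error cannot be recovered from them, and the strand setting of the estimation was not given in the sources used here.

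Differences between hairpins were computed within each line on the log2(TPM + 1) scale for genes that averaged 1 TPM or more, and a gene was counted when the difference reached 1 in size. There was 1 library per group and no test. The members and the lists were chosen with earlier results of these data known, the lists from general knowledge. Named genes are the members, SKP2, the counted, highest or lowest genes of each list, ubiquitin relatives and the nearest profiles. The flanking genes, promoter motifs, shared 50-base words and TRIM25, ARIH1, NEDD8, IFNL1, UBD, LOC102723458 and the markers were named or examined after values had been seen. The tables list RIG-I and USP41 under older symbols (2 aliases).

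Alternatives were 0.1 TPM added, centring on the median, removal of 635 structural RNA genes with rescaling, upper-quartile scaling, a minimum mean of 5 TPM, all genes above 0 TPM, a limit of 1.5-fold and, chosen after seeing the data, removal of RMRP, RPPH1 and tRNA genes as well. Promoter windows came from RefSeq (GRCh38.p14), exons and transcripts from GENCODE. The scripts were tested on simulated data. Python 3.11.15, numpy 2.4.6, pandas 2.3.3 and matplotlib 3.10.9 were used. Some genes of the lists are not reported here. The other assays of the study were not analysed here.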

Additional observations from a re-analysis of the deposited data

How the results depend on the processing

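The members stayed below 0 in both lines under the alternatives that rescale or centre the values. UBA7 was not tested at a minimum of 5 TPM. The other alternatives cannot change the sign of a within-line difference, so the members were below 0 under them regardless. Their median difference in RD was -0.98 when centred on the median of all tested genes and -0.97 under upper-quartile scaling, both short of the limit of 1. The median in JR1 and the counts of lower and higher members kept their side or stayed within 1.5 times. With a limit of 1.5-fold, 1 member differed between JR1 and RD in shSCR (UBE2L6, 0.61) and 1 in shSKP2 (HERC5, -0.82), where none did at the limit of 1. Of single genes, UBA7 in RD was -0.85 centred and -0.88 under upper-quartile scaling, and UBE2L6 in JR1 was -0.87, -0.81 without structural RNAs, -0.80 under upper-quartile scaling and -0.83 with RMRP, RPPH1 and tRNA genes removed as well. With these scalings fewer genes were lower by 1 over the whole table, 3.03% to 3.53% in RD and 5.24% to 7.51% in JR1. UBE2L6 and USP18 in RD passed a limit of 1.5-fold, as did 23.2% of tested genes there. The values of UBA7 moved most, from -1.74 to -0.85 in RD and from -2.12 to -1.31 in JR1. Each difference already paired the shSKP2 and shSCR libraries of 1 line. A fit over both lines with the line as a block was not run, since the members were selected on these differences, and the labels give no replicate numbers. Leaving out a library would leave its line with no difference.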
